A study of Mus musculus with 4 samples.

Results

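Transcription factors that build and maintain the gastric epithelium were compared between WT and *c-Myc* transgenic mouse stomachs. The members are 10 genes chosen by name for their roles in the foregut and in mucous lineages, *Gata4*, *Gata6*, *Foxa1*, *Foxa2*, *Foxa3*, *Foxq1*, *Spdef*, *Klf4*, *Klf5* and *Hnf4a*, out of 46095 gene rows. Bulk RNA sequencing was done on stomach RNA of C57BL/6 mice at 12 weeks of age, and 2 samples per genotype were analysed here, although the series text speaks of triplicates. The transgenic mice were *Atp4b-cre; Myc OE*, called MYC-KI in the sample labels, in which the *Atp4b* promoter drives Cre in parietal lineage cells and Cre turns on human *c-Myc*. The controls were *Myc fl/fl* littermates, called WT, and mice of both sexes entered the study. Total counts were 36152857 and 30260305 in WT replicates 1 and 2, and 31350412 and 41463647 in MYC-KI replicates 1 and 2. Nothing in the labels names the animals, so the p-values measure the spread between these samples.

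The gene names and the transgenic counts are out of step in the deposited table, and all values here come from a re-sorted one. The counts of both MYC-KI columns were assigned in row order to the names sorted by character code, while the WT columns stayed in place. Genes are not independent replicates, and across them Pearson's r of log2 counts between the genotypes was 0.5243 as deposited and 0.9854 after the move, against 0.9859 between the WT samples and 0.9828 between the MYC-KI samples. In the 61 rows around each member, r lay between 0.1207 and 0.4998 as deposited and between 0.9666 and 0.9918 after the move. In the deposited order the MYC-KI counts beside *Foxa1* are those of *Foxa2*, those beside *Foxa2* are those of *Foxa3*, and those beside *Klf4* are those of *Klf5*. Beside *Hnf4a* stand 15 and 3 counts, which belong to its antisense gene *Hnf4aos*.

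Some libraries stood apart from their group. *Xist*, made from the inactive X chromosome, had 17846 counts in WT replicate 2 and 85, 113 and 201 in WT replicate 1 and MYC-KI replicates 1 and 2. The Y-linked gene *Ddx3y* had 5 counts in WT replicate 2 and 1861, 1941 and 2623 in the others, so WT replicate 2 carried the female pattern and the other 3 samples the male pattern. Markers of forestomach squamous epithelium summed to 7044 in normalized CPM, the count divided by the TMM-adjusted library size, in MYC-KI replicate 2 and to 1900 in MYC-KI replicate 1. Intestinal markers summed to 2482 in MYC-KI replicate 1 and 2226 in WT replicate 1, against 942 and 1136 in MYC-KI replicate 2 and WT replicate 2.

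GATA factors are zinc finger proteins that bind GATA motifs, and FOXA factors are forkhead proteins that can open closed chromatin. Both families pattern the endoderm before they act in the adult stomach, where mucous, parietal, chief and endocrine cells share the gland. Krüppel-like factors balance division and differentiation in many epithelia, and HNF4A is a nuclear receptor of gut and liver epithelium.

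Among the members, *Foxa1* and *Klf5* rose and *Gata4* and *Foxa2* fell in *c-Myc* transgenic stomachs, while the other 6 were not called. Calls required a change of more than 1.5-fold and an adjusted p under 0.05 in edgeR's quasi-likelihood test with Benjamini-Hochberg adjustment. All 10 members passed the filter on low counts, and 4 were called, 2 higher and 2 lower. Over all 17643 genes tested the called share was 10.7%, with 5.65% higher and 5.08% lower. A replicate block, although the replicate numbers do not pair the samples, left 114 genes (0.646%) and 1 member called, *Foxa2*. The genotypes did not overlap in normalized CPM for 9 of the 10 members, against 64.9% of all genes tested. With the counts in their deposited order 84.1% of all genes tested, and 7 of the 10 members, would have been called. The median log2 fold change after re-sorting was -0.39 over the members and 0.01 over all genes. Leaving out either WT sample left the edgeR test with 0 called genes, and 3554 of 18333 genes (19.4%) without WT replicate 1 and 3410 of 18615 (18.3%) without WT replicate 2 then had an unadjusted p under 0.05, 6 and 5 of them members, against 6024 of 17643 (34.1%) and 6 members in the main fit. For a single gene, an exact permutation test of 2 samples against 2 cannot go below a two-sided p of 0.333.

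*Gata4*, which activates genes of gastric acid secretion, lies at chr14:63198922-63271692 on the minus strand of GRCm38. Its normalized CPM was 320 and 342 in WT and 186 and 172 in MYC-KI samples. Both transgenic values lay well under both WT values, with means of 331 ± 15.5 and 179 ± 10.2 (SD, n = 2 each). The log2 fold change was -0.89 (standard error 0.09, 95% confidence interval -1.13 to -0.64), a 1.85-fold fall with an edgeR Benjamini-Hochberg adjusted p of 0.0201. *Gata6*, its close relative and also a regulator of proton pump genes, had 111 and 116 in WT and 87.9 and 77.8 in MYC-KI samples. The groups did not overlap, but with a log2 fold change of -0.45 (95% confidence interval -0.71 to -0.20) and an edgeR adjusted p of 0.053 the gene was not called. With library size in place of TMM its log2 fold change was -0.23 (edgeR adjusted p 0.155), and under a replicate block the edgeR adjusted p was 0.107. With DESeq2 the log2 fold change was -0.46 (DESeq2 adjusted p 0.00655). The edgeR adjusted p was 0.0378 with no filter on low counts and 0.0468 with a minimum of 10 counts. In all of these runs the change stayed under the 1.5-fold limit. On the opposite strand an uncharacterized gene, *1010001N08Rik*, shares 93 exon bases with *Gata6*, and its counts were 462 and 612 in WT against 201 and 234 in MYC-KI samples. The strand setting of the counting is not given, so reads from these bases cannot be told apart.

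Of the FOXA genes *Foxa1* rose, *Foxa2* fell and *Foxa3* was not called. *Foxa1* (chr12:57540628-57546916, minus strand), a factor of many endoderm epithelia, had 204 and 219 normalized CPM in WT and 344 and 351 in MYC-KI samples. Both transgenic samples were above both WT samples, and the rise was 1.64-fold, or 0.72 on the log2 scale (standard error 0.08, 95% confidence interval 0.49 to 0.94, edgeR Benjamini-Hochberg adjusted p 0.0232). *Foxa2* (chr2:148042877-148046969, minus strand), known for its part in foregut and endoderm differentiation, had 55.9 and 62 in WT and 14.9 and 16.4 in MYC-KI samples. It had the lowest log2 fold change of the members, -1.91 (standard error 0.11, 95% confidence interval -2.22 to -1.60, edgeR adjusted p 0.0122), a 3.76-fold fall. *Foxa3* (chr7:19013284-19023538, minus strand), expressed in gut endoderm and liver, had 92.6 and 102 in WT and 67.9 and 68.8 in MYC-KI samples. No transgenic sample reached a WT one, and the edgeR adjusted p was 0.0374, but the log2 fold change of -0.51 (95% confidence interval -0.74 to -0.28) was under the 1.5-fold limit. With library size in place of TMM the log2 fold change of *Foxa3* was -0.29 (edgeR adjusted p 0.0772). Under a replicate block its edgeR adjusted p was 0.0809. With DESeq2 the log2 fold change of *Foxa3* was -0.52 (DESeq2 adjusted p 0.00106), still under the 1.5-fold limit.

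Per kilobase of exon, so that levels can be compared between genes, *Foxa1* held 47% and 46.2% of the summed CPM of the 3 FOXA genes in WT samples and 72.3% and 72.1% in MYC-KI samples. The share of *Foxa2* went from 18.1% and 18.4% to 4.4% and 4.75%, and that of *Foxa3* from 34.8% and 35.3% to 23.3% and 23.1%. The sum of the family was 130 and 142 CPM per kilobase in WT and 143 and 146 in MYC-KI samples. *Gata4* held 65.3% and 63.6% of the summed *Gata4*, *Gata5* and *Gata6* in WT and 55.5% and 58.2% in MYC-KI samples, and this sum went from 126 and 138 to 86 and 75.7 CPM per kilobase.

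*Klf5*, a factor of dividing epithelial cells, lies at chr14:99298691-99315036 on the plus strand. It had 128 and 118 normalized CPM in WT and 271 and 254 in MYC-KI samples. Both transgenic values lay above both WT values, and the log2 fold change was 1.09 (standard error 0.09, 95% confidence interval 0.85 to 1.34), a 2.13-fold rise with an edgeR Benjamini-Hochberg adjusted p of 0.0176. *Klf4* (chr4:55527143-55532466, minus strand), which restrains division in gastric and intestinal epithelium, had 639 and 616 in WT and 308 and 513 in MYC-KI samples. The 2 transgenic values differed widely, with an SD of 144 against 16.1 in WT, and the log2 fold change of -0.61 (95% confidence interval -1.31 to 0.09) was not called, with an edgeR adjusted p of 0.186. Without MYC-KI replicate 2 it was called, with a log2 fold change of -1.02 and an edgeR adjusted p of 0.0163, and without replicate 1 it was not, at -0.29 and 0.148, while over all alternatives on the re-sorted table its adjusted p ran from 0.0163 to 0.461. MYC-KI replicate 2, the higher of the 2 for *Klf4*, was also the higher for the squamous, smooth muscle and surface mucous sums, and the part of these cells in that difference was not tested.

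*Foxq1* (chr13:31556134-31560976, plus strand), needed for *Muc5ac* expression in surface mucous cells, had 321 and 362 normalized CPM in WT and 286 and 346 in MYC-KI samples. The groups overlapped, and the log2 fold change was -0.11 (95% confidence interval -0.47 to 0.25, edgeR adjusted p 0.605). Its sign turned with library size in place of TMM (0.11) and without MYC-KI replicate 1 (0.02). An annotated gene on the opposite strand, *A530084C06Rik*, shares 3200 exon bases with *Foxq1* and has no row in the table. *Spdef* (chr17:27714352-27728955, minus strand), a factor of mucous gland cell maturation, was scarce, at 70 and 54 counts in WT against 54 and 72 in MYC-KI samples. Its normalized CPM was 2.09 and 1.94 in WT and 1.59 and 1.61 in MYC-KI samples, and the log2 fold change of -0.33 had a wide interval (95% confidence interval -1.17 to 0.52, edgeR adjusted p 0.516). *Hnf4a* (chr2:163506808-163572910, plus strand) had 232 and 238 in WT and 300 and 246 in MYC-KI samples. Both transgenic values were higher, by a log2 fold change of 0.22 (95% confidence interval -0.11 to 0.55), and the edgeR adjusted p was 0.29. The log2 fold change was 0.07 without MYC-KI replicate 1, 0.35 without replicate 2 and 0.44 with library size in place of TMM.

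**Figure D1:**
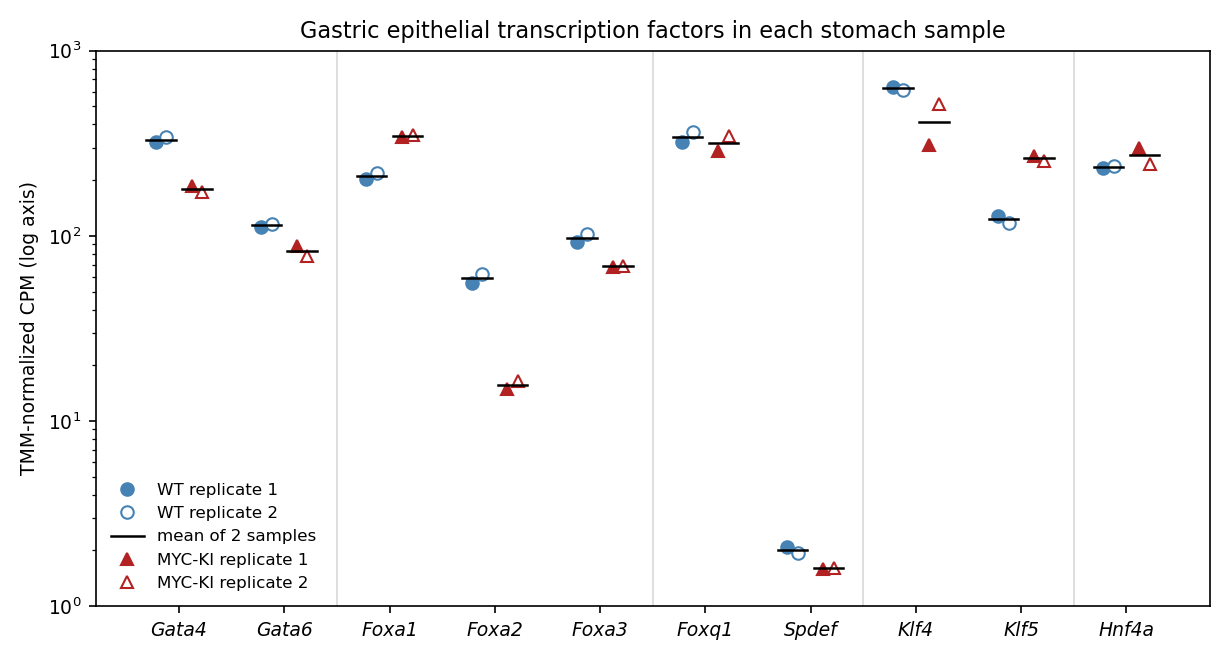
TMM-normalized CPM of the 10 members in each sample, on a log axis, with WT as blue circles, MYC-KI as red triangles, replicate 1 filled, replicate 2 open and black bars at the mean of 2 samples. *Foxa2* falls from 55.9 and 62 to 14.9 and 16.4, *Klf5* rises from 128 and 118 to 271 and 254, and the groups overlap for *Foxq1*.

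**Figure D2:**
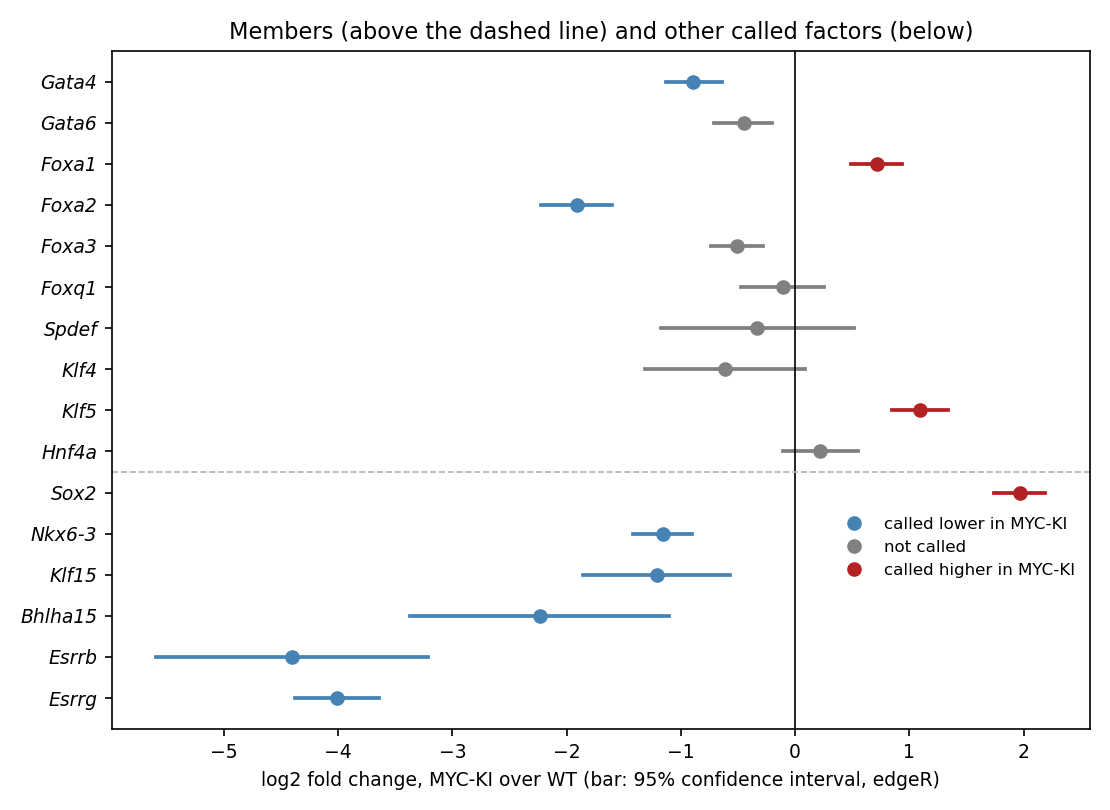
Log2 fold changes of MYC-KI over WT with 95% confidence intervals from edgeR for the 10 members, above the dashed line, and for the 6 other factors that were called, below it. Red and blue mark genes called higher and lower, and gray marks genes not called.

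Per kilobase, *Klf4* was the most abundant member in both genotypes, with means of 206 in WT and 135 in MYC-KI samples. In WT the order went on with *Gata4* (84.9), *Foxq1* (70.5), *Foxa1* (63.5), *Hnf4a* (48.7), *Foxa3* (47.8), *Foxa2* (24.9), *Klf5* (23.7), *Gata6* (17.5) and *Spdef* (0.872 CPM per kilobase). *Hnf4a* and *Foxa3* overlapped across samples, as did *Foxa2* and *Klf5*, and *Foxq1* and *Foxa1* lay close, at 66.3 and 65.7 at their nearest. In MYC-KI samples the order was *Klf4*, *Foxa1* (104), *Foxq1* (65.2), *Hnf4a* (56.5), *Klf5* (50.4), *Gata4* (45.9), *Foxa3* (33.6), *Gata6* (12.7), *Foxa2* (6.61) and *Spdef* (0.695). There *Klf4* overlapped with *Foxa1*, *Foxq1* with *Hnf4a*, and *Hnf4a* with *Klf5*.

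Of 83 related factors and cofactors in 7 lists, 75 were tested and 6 were called, 1 higher and 5 lower, a share of 8% against 10.7% of all genes, with a median log2 fold change of 0.05. For the counts by list that follow, the shares over all genes tested in each run were 34.1% of 17643 at an unadjusted p under 0.05 in edgeR, 12.1% of 26731 called by DESeq2, and 8.68% of 18580 and 13.5% of 18289 called by edgeR without MYC-KI replicate 1 and without replicate 2. The 26731 genes under the DESeq2 share are all genes with any count, including any to which DESeq2 gave no adjusted p. *Sox2*, a foregut and stem cell factor, rose from 20.1 and 20 normalized CPM to 76.5 and 80, or 1.97 on the log2 scale (standard error 0.08, edgeR adjusted p 0.00897). It was the single factor called higher among 11 foregut and gastric patterning factors. *Nkx6-3*, a homeobox factor of the antrum, was the single one called lower, with 73.2 and 79.7 in WT and 35.8 and 32.7 in MYC-KI samples (log2 fold change -1.16, edgeR adjusted p 0.0176). The most abundant of this list that were not called were *Sox21* (130 and 122 against 116 and 115) and *Onecut2* (40.6 and 40.6 against 124 and 32), which was high in MYC-KI replicate 1 alone. Without MYC-KI replicate 2 the list had 4 called, and 4 with DESeq2.

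Gland lineage and secretory factors had 3 of 10 tested genes called, all lower, and 5 without MYC-KI replicate 2. *Esrrg*, an estrogen-related receptor of parietal cells, fell from 177 and 198 normalized CPM to 10.6 and 12.6 (log2 fold change -4.01, edgeR adjusted p 0.00635). *Esrrb*, its relative, fell from 11.4 and 12.1 to 0.767 and 0.358 (log2 fold change -4.40, edgeR adjusted p 0.0198). *Bhlha15*, which matures chief cells, fell from 41.1 and 38.6 to 11.8 and 5.19 (log2 fold change -2.23, edgeR adjusted p 0.0442). Without MYC-KI replicate 1 the log2 fold change was -2.94 for *Bhlha15* and -5.02 for *Esrrb*, and without replicate 2 it was -1.76 and -3.93. *Xbp1*, a regulator of the secretory apparatus, was not called (400 and 441 against 363 and 307), nor was *Creb3l1*, a membrane-bound factor of secretory cells (134 and 182 against 292 and 202). Among 13 tested Krüppel-like relatives 1 was called lower, *Klf15*, a factor known from metabolic tissues, with 44 and 37.4 in WT and 13.9 and 21.1 in MYC-KI samples (log2 fold change -1.21, edgeR adjusted p 0.0475, and 0.0519 with library size in place of TMM). With DESeq2 3 of that list were called, and likewise 3 without MYC-KI replicate 2. *Klf3* (269 and 318 against 197 and 238) and *Klf6* (143 and 141 against 142 and 199) were not called. An unadjusted edgeR p under 0.05 was found for 7 of the 13 Krüppel-like relatives and 5 of the 10 gland lineage factors. It was also found for 4 of the 11 patterning factors, and for 34.1% of all genes tested.

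Among 5 tested GATA relatives and cofactors edgeR called 0, with 0 at an unadjusted p under 0.05 and 0 called by DESeq2. *Zfpm1*, a GATA cofactor, had 170 and 239 normalized CPM in WT and 195 and 179 in MYC-KI samples, and *Gata5* had 87 and 106 against 81.1 and 64.6. Among 21 tested forkhead relatives edgeR called 0, with 4 at an unadjusted p under 0.05 and 2 called by DESeq2, and 2 by edgeR without MYC-KI replicate 2. Of these relatives, *Foxp1* stood at 143 and 145 against 142 and 153 and *Foxp4* at 134 and 155 against 149 and 136. Epithelial barrier factors had 0 of 10 called by edgeR, 2 at an unadjusted p under 0.05 and 0 called by DESeq2, and edgeR called 1 without MYC-KI replicate 2. *Elf3*, an ETS factor of epithelia, was not called and had 326 and 392 normalized CPM in WT against 445 and 418 in MYC-KI samples. Intestinal identity factors had 0 of 5 called by edgeR, 0 at an unadjusted p under 0.05 and 0 called by DESeq2, although edgeR called 1 when MYC-KI replicate 1 was left out and 1 when replicate 2 was. In that list *Cdx2*, the homeobox factor of intestinal fate, had 10.2 and 10.4 in WT and 22.3 and 2.62 in MYC-KI samples. *Cdx1* had 6.94 and 2.94 against 9.41 and 0.672, low in MYC-KI replicate 2 for both genes.

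Mucous products of the stomach were compared in the same samples. Surface mucous products had 4 of 6 called, all lower, and summed to 46112 and 54971 normalized CPM in WT and 12533 and 18615 in MYC-KI samples. *Muc5ac*, the surface mucin, fell from 10198 and 12744 to 1465 and 2701 (log2 fold change -2.46, edgeR adjusted p 0.0303). *Gkn2*, a gastrokine, fell from 14788 and 17686 to 3434 and 5374 (log2 fold change -1.88, edgeR adjusted p 0.0309), and the gastrokine *Gkn1* from 11796 and 13468 to 3014 and 4582 (log2 fold change -1.73, edgeR adjusted p 0.0309). The trefoil peptide *Tff1* fell from 8108 and 9662 to 3043 and 4537 (log2 fold change -1.23, edgeR adjusted p 0.049, and 0.0512 with library size in place of TMM). *Agr2*, which helps fold mucins, had 827 and 976 against 1094 and 982, and the membrane mucin *Muc1* had 396 and 435 against 481 and 440, and neither was called. Products of mucous neck and gland cells had 0 of 6 called by edgeR, 1 at an unadjusted p under 0.05 and 1 called by DESeq2, with *Tff2* at 5526 and 6472 in WT and 12341 and 5000 in MYC-KI samples, and *Muc6* at 4337 and 5723 against 7373 and 3667. MYC-KI replicate 1 was the high sample of that list, with a sum of 26329 against 11229 in replicate 2, and edgeR called 4 of the list without replicate 2.

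Markers of the main cell types were summed in the same samples, and in bulk tissue fewer cells of a type and less RNA per cell cannot be told apart. Parietal markers had 9 of 9 tested called lower, and their sum went from 13675 and 13759 to 476 and 460 normalized CPM, led by *Atp4a*, a proton pump subunit. *Gif*, counted in this list, had 1776 and 1678 in WT against 101 and 58.5 in MYC-KI samples. Whether its RNA came from parietal or chief cells was not tested. Chief cell markers had 3 of 6 called lower, with sums of 83202 and 78934 against 1256 and 1666, and *Lipf* at the floor of 3 counts or fewer. *Pgc*, the pepsinogen C gene, led the list and alone made up 80998 and 76705 of the sums in WT. Of the tested chief cell markers not called, *Pga5* had 34.3 and 27 against 38.2 and 23.7. *Ctsl* had 153 and 127 against 169 and 209, and *Cpb1* was lower, with 1.52 and 1.4 against 0.501 and 0.403. Endocrine markers had 5 of 6 called lower, or 3 without MYC-KI replicate 1 (2404 and 1529 against 481 and 527, led by *Chga*), and leukocyte markers 3 of 7 (195 and 207 against 83.8 and 78.4, led by *Lyz2*). Pan-epithelial markers had 0 of 6 called by edgeR (2 at an unadjusted p under 0.05, 1 by DESeq2 and 1 by edgeR without MYC-KI replicate 2), at 8920 and 9771 against 9754 and 10479, led by *Krt8*. Squamous markers, at 4043 and 2492 against 1900 and 7044 and led by *Krt13*, had 0 of 15 called by edgeR, 1 at an unadjusted p under 0.05 and 1 by DESeq2, and 5 by edgeR without MYC-KI replicate 1. Smooth muscle markers, at 8185 and 5219 against 2689 and 5745 and led by *Myh11*, had 0 of 8 called by edgeR, 0 at an unadjusted p under 0.05 and 0 by DESeq2, and 1 by edgeR without MYC-KI replicate 2. Intestinal markers, at 2226 and 1136 against 2482 and 942 and led by *Lgals4*, had 0 of 8 called by edgeR, 1 at an unadjusted p under 0.05 and 0 by DESeq2. Pancreatic acinar markers had 4 of 8 tested called lower, or 2 without MYC-KI replicate 1 and 7 with DESeq2 (10235 and 8963 against 162 and 182, led by *Pla2g1b*), and *Prss2*, *Try4*, *Cpa1*, *Amy2a5* and *Cela3b* were at the floor. *Pla2g1b* alone made up 9805 and 8607 of the acinar sums in WT and 18.9 and 21.4 in MYC-KI samples. *Cela1*, the next most abundant acinar marker in WT, had 247 and 211 against 124 and 145. The called leukocyte markers were *Lyz2*, *Itgam* and *Adgre1*, and 4 tested ones were not called. Among those 4, *Ptprc* had 15 and 21.2 against 21.9 and 13.3. The part of all the cell types above in the changes of the members was not tested.

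Promoter sequence is reported for 6 members, as the 250 bases before each RefSeq start in GRCm38.p6. *Gata4*, *Gata6*, *Foxq1* and *Klf5* are not covered, so matches in their promoters are not known here. CACGTG, the E-box bound by MYC and MAX, AGATAA, bound by GATA factors, and TGTTTAC, bound by forkhead factors, were searched on both strands. Of all 32851 promoters, 6.02% held CACGTG, 9.99% AGATAA and 3.17% TGTTTAC. The 4 matches among these 6 members are shown with 30 bases each, because they are where these letters occur. Each match is in capitals and is read on the gene's strand. In *Foxa1* the forkhead letters, in reverse complement, ended 135 bases before the start (chr12:57546234-57546263, minus strand), in an intron of the GENCODE gene. In *Foxa2* the GATA letters lay 178 bases before the start of the most downstream of its 3 promoters (chr2:148045630-148045659, minus strand), also in an intron. In *Klf4* the E-box letters lay 177 bases before the start (chr4:55532640-55532669, minus strand), outside the gene, and in *Hnf4a* the GATA letters lay 47 bases before the start of the more upstream of its 2 promoters (chr2:163506793-163506822, plus strand), in a window with 15 bases in the gene's first exon. No match was found in *Foxa3* and *Spdef* or in the other promoters of *Foxa2* and *Hnf4a*, and matches are letters only, not evidence of binding.
Foxa1: tatactgctttGTAAACAaagtgagggcca
Foxa2: ctgttagccttgAGATAAtattaactttgt
Klf4: cgcccccgccccCACGTGcgcggagtttgt
Hnf4a: gaagaatcaataAGATAAccgggcggggtg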

How the data were processed

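The authors deposited raw counts per gene, with 46095 gene symbols and 1 column for each of 4 samples, and no values were normalized. The submitters' processing notes name HISAT2 and mm10, and the counting tool, its strand setting and the annotation are not given in the sources used here. The MYC-KI counts were re-sorted to the names in character code order before any test. In R 4.3.3, edgeR 4.0.16 was run with TMM, filterByExpr on genotype, glmQLFit and glmQLFTest, with no covariates and with Benjamini-Hochberg adjustment over 17643 genes, and calls required an adjusted p under 0.05 with a log2 fold change beyond 0.585 in size. Standard errors are the absolute log2 fold change over the square root of F. Normalized CPM use the TMM library sizes, and levels per kilobase use merged exon lengths of GENCODE M21 (GRCm38, the same assembly as mm10). At 30260305 to 41463647 counts per sample, the floor was taken as 3 counts.

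The members and lists were chosen with earlier results of these data known. The named genes are all members and, of each list, the called genes and the 2 uncalled genes with the highest mean CPM. The values of 1 gene that this rule names are left out. The marker lists are named by their most abundant gene and their genes at the floor, and some other markers are given beside them. Promoters are RefSeq GRCm38.p6 sequences. The alternatives were the deposited order, DESeq2 1.42.0, its size factors in edgeR, library size, 2 other filters, a replicate block, 2 fold thresholds and the omission of each sample. On simulated counts the scripts were tested beforehand.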

Additional observations from a re-analysis of the deposited data

How the results depend on the processing

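The 4 calls among the members, *Gata4*, *Foxa1*, *Foxa2* and *Klf5*, were kept in direction under DESeq2, its size factors, library size, no filter, a minimum of 10 counts and the omission of MYC-KI replicate 1 or 2. All genes called numbered 3232 with DESeq2, 3011 (17.1%, against 10.7% in the main fit) with library size and 1113 (6.31%) above an absolute log2 fold change of 1, where 2 members were called. Library size moved the median log2 fold change of all genes from 0.01 to 0.23 and that of the members to -0.17, the share of higher calls from 52.6% to 75.5%, and *Foxq1* to 0.11. It also gave 1 call each among 21 forkhead relatives, 10 barrier factors, 6 mucous neck products, 15 squamous markers and 8 intestinal markers, 2 among 6 pan-epithelial markers and 3 among 13 Krüppel-like relatives, beside 17.1% of all genes. In the deposited order 18580 genes (84.1%) and 7 members were called, the median of the members was -1.66, and log2 fold changes turned to -3.69 for *Foxa1*, 0.28 for *Foxa2*, 0.16 for *Spdef* and -9.87 for *Hnf4a*, each set against the counts of another gene. Leaving out each sample in turn gave 0 to 2470 genes and 0 to 5 members called, and *Foxq1* from -0.25 to 0.02. Such a fit holds 1 lone sample that is assumed to vary like the others. Without a WT sample the fold changes of the 4 called members lay within 0.67 to 0.76 for *Foxa1*, -1.99 to -1.84 for *Foxa2*, -0.93 to -0.84 for *Gata4* and 1.03 to 1.15 for *Klf5*, and none was called, with edgeR adjusted p from 0.196 to 0.201 without WT replicate 1 and of 0.232 each without WT replicate 2, the fit with male-pattern samples alone and 1 WT library. The replicate numbers do not pair the samples (r = 0.065 between same-numbered deviations, from 2 pairs), and a replicate block gave 114 genes (0.646%) and 1 member called, *Foxa2*, with edgeR adjusted p of 0.0584 for *Gata4*, 0.0619 for *Foxa1* and 0.0541 for *Klf5*. Under the block 0 of the surface mucous products, 0 Krüppel-like relatives, 1 patterning factor and 1 gland lineage factor were called, with edgeR adjusted p from 0.0541 (*Muc5ac*) to 0.0919 (*Klf15*) for *Muc5ac*, *Gkn1*, *Gkn2*, *Tff1*, *Nkx6-3*, *Esrrb*, *Bhlha15* and *Klf15*, and the called pancreatic acinar, leukocyte and endocrine markers numbered 2, 1 and 1. The cause of these moves was not tested, apart from the order of the names.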
